A study of Sus scrofa with 4 samples.

Results

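Kidneys of gene-edited pigs were compared after and without transplantation into non-human primates, across 2 donor genotypes. Of 26466 gene symbols in the files, 18168 had 10 or more counts in at least 1 of the 4 libraries, and these were the genes compared. At the edge of that limit, 247 symbols had a highest count of exactly 10 and were kept, and 301 had a highest count of 9 and were left out. The description turns on genes that changed alike in both genotypes, in functions outside the well-known markers of kidney segments and of immune cells.

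All donors carried GalT-/-, the loss of the galactosyltransferase that makes the alpha-Gal sugar on pig cells, together with human CD39 and human CD55. Kidneys of genotype GalT-/-;hCD39;hCD55, written CD39/CD55 here, gave 1 untransplanted library and 1 library from a graft 4 weeks after transplantation. Kidneys of genotype GalT-/-;hCD39;hCD46;hCD55;TBM, which added human CD46 and thrombomodulin (TBM) and are written CD39/CD46/CD55/TBM here, gave 1 untransplanted library and 1 library from a graft at 6 weeks. The 2 grafts were set against the 2 untransplanted kidneys. Within a genotype, the graft and the untransplanted kidney are called the 4-week pair (CD39/CD55) and the 6-week pair (CD39/CD46/CD55/TBM). Genotype, weeks in the recipient and the recipient itself cannot be told apart between the grafts. The labels do not say whether a graft and an untransplanted kidney came from related animals or litters, what promoters drive the transgenes, what immunosuppression was given, or how reads of the recipient's own cells were treated. The p-values therefore measure the spread between these 4 samples only.

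A kidney filters plasma and then recovers nearly all of what it filtered, and most of its RNA comes from tubule cells that carry transporters, surface peptidases and a broad set of metabolic enzymes. Those enzymes include routes that are less often described than transport: retinol handling, folate and methyl group metabolism, salvage of purines, breakdown of inositol and fructose, and the removal of peptides from the urine. Tubule cells that are injured or regenerating are known to lose such specialised products and to make simpler epithelial ones, such as keratins, annexins and S100 proteins, which bind calcium and membranes.

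Total counts ranged from 10346863 to 14092905 per library. Loci of ribosomal RNA took 10.8% and 12.6% of the counts in the untransplanted libraries and 22.4% and 18.9% in the grafts, and mitochondrially encoded genes took 4.23% to 15.0%. Levels are given as CPM, counts scaled by TMM factors and expressed per 1000000 counts, a unit that is not corrected for gene length; a count of 3 corresponds to 0.219 to 0.29 CPM depending on the library. All 13 kidney identity markers in the files passed the count limit. Their summed level was 8178 and 5629 CPM in the untransplanted kidneys and 1977 and 1255 in the grafts, in the order CD39/CD55 and CD39/CD46/CD55/TBM. Because tissue was sequenced in bulk, fewer cells of a type and less RNA per cell cannot be told apart.

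Markers of other tissues were present in part. The 12 liver markers summed to 278 and 207 CPM in the untransplanted kidneys and to 92.3 and 109 CPM in the grafts. ALB had at most 5 counts in a library and SERPINA1 none, but TF, the transferrin gene, fell from 240 and 157 CPM to 58.2 and 15.9 CPM, TTR also fell, and FGA and HP rose, HP from 18 and 9 counts to 58 and 554. TF and HP did not pass without the 6-week graft, at log2 fold changes of -1.77 and 2.20 against -2.42 and 4.82, and without the 4-week graft they stood at -3.63 and 5.71. HP also did not pass with limma voom. Red cell markers summed to 50.5 and 195 CPM without transplantation and to 19.6 and 36.4 CPM in the grafts. Among them HBB fell from 8.01 and 167 CPM to 0.242 and 4.45 CPM. That call did not hold with DESeq2, with limma voom, or when 10 counts were asked of at least 2 libraries. Nor did it hold without the CD39/CD46/CD55/TBM untransplanted library (log2 fold change -1.79 against -5.25, and -4.29 to -8.44 in the other fits that left out 1 library). Muscle markers summed to 146 and 103 CPM and then to 52.9 and 47.7 CPM, and ACTA2 of smooth muscle fell, but did not pass without the CD39/CD55 untransplanted library or without the 6-week graft (adjusted p = 0.23 and 0.0602).

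Intestine and stomach markers summed to 68.4 and 80.3 CPM in the untransplanted kidneys and to 21.8 and 25.0 CPM in the grafts; VIL1, which the kidney tubule also expresses, fell, MUC2 rose, and CDX2, TFF1 and TFF2 had no count. Fat markers ranged from 33.1 to 67.6 CPM over the libraries, with ADIPOQ at no more than 2 counts and FABP4 at up to 40.9 CPM. Urothelial markers ranged from 52.1 to 92.7 CPM, of which GATA3 made 49.1 to 88.2 CPM, and UPK2 and KRT5 had no count. Schwann cell and nerve markers ranged from 73.4 to 193 CPM, of which MBP made 65.3 to 175 CPM, and SOX10 had no count. None of the fat, urothelial and Schwann cell markers passed in edgeR's test. The part of these tissues in the results below was not tested.

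For 79 of 184 called genes chosen for naming, leaving out 1 library moved the fold change by more than 1.5 times. The log2 fold change without that library is given beside such genes, apart from those with a library at 0 counts, where the fitted value depends on the prior count.

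After transplantation 225 genes rose and 493 fell, at an adjusted p under 0.05 in edgeR's quasi-likelihood test, which is 1.24% and 2.71% of the genes tested. A gene was called alike where it passed that test, was at least 2-fold changed in each genotype taken by itself, had 95% counting intervals excluding no change in both, and had log2 ratios less than 1 apart. By this rule 114 genes rose alike (0.627%) and 323 fell alike (1.78%). The remaining 111 risen and 170 fallen genes differed more in size between the genotypes; 87 of those 111 and 109 of those 170 lay further from 0 in the 6-week pair. The test favours genes whose 2 libraries on a side lie close together, so agreement between the genotypes is partly built into the call: 222 of the 225 and 488 of the 493 were changed at least 2-fold the same way in both. The counts depended on the fit: with genotype as a block 1124 genes rose and 1681 fell, and without the 4-week graft library 1051 rose and 1349 fell. Without ribosomal RNA and mitochondrial loci they were 227 and 496.

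Without regard to the test, 1068 genes (5.88%) were at least 2-fold higher and 1386 (7.63%) at least 2-fold lower in both genotypes, with counting intervals that excluded no change. Another 131 genes (0.721%) were 2-fold higher in 1 genotype and 2-fold lower in the other. Across the 18168 genes the log2 ratios of the genotypes, which share no library, had a Spearman correlation of 0.55 and a Pearson correlation of 0.56. Genes are not independent replicates, and both correlations are given as descriptions. The plot of the log2 ratios shows both groups of called genes along the diagonal, with a tail of larger changes in the 6-week pair.

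**Figure D1:**
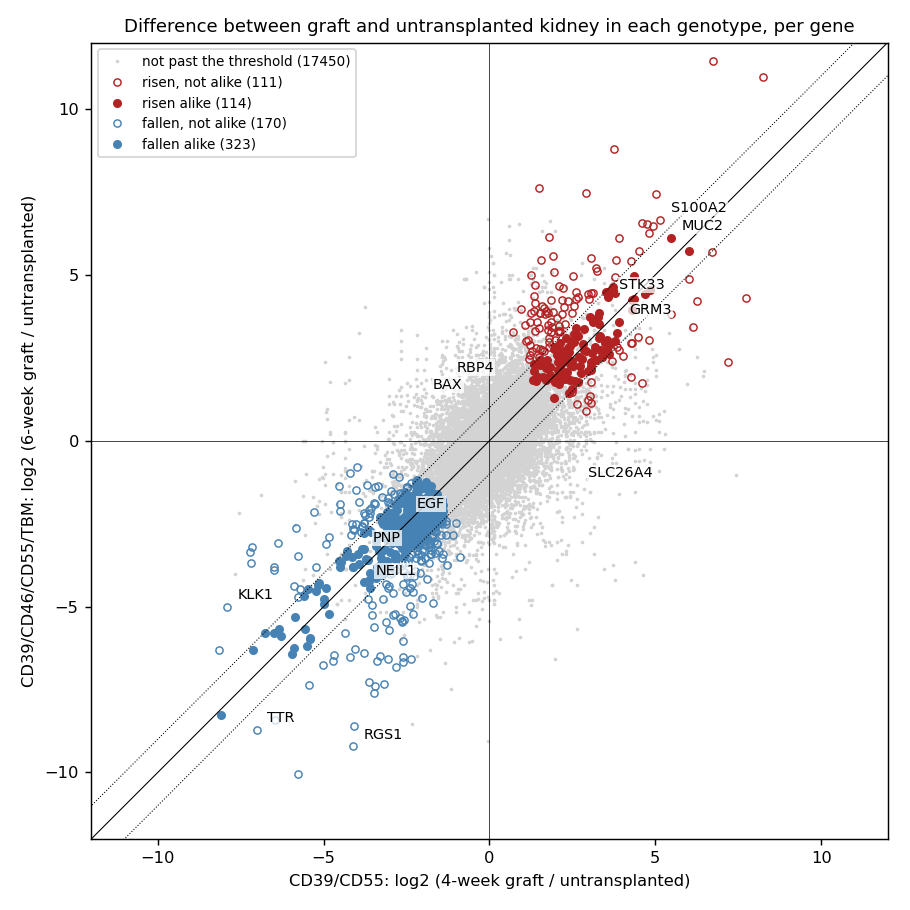
Each point is a gene; the horizontal axis is the log2 ratio of scaled counts in the CD39/CD55 pair and the vertical axis the same in the CD39/CD46/CD55/TBM pair, with red for risen, blue for fallen, filled points for genes alike in both and dotted lines 1 log2 unit from equality. The 114 and 323 filled points lie by construction between the dotted lines, and RBP4, BAX and SLC26A4 are labelled among the genes that moved in opposite directions.

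Composition differed between the directions. Long non-coding RNAs were 47 of the 225 risen genes, or 20.9%, and 52 of the 493 fallen genes, or 10.5%, against 15.0% of the genes tested. The median level over the 4 libraries was 13 CPM for risen genes, 28 CPM for fallen genes and 12 CPM for all genes tested. Of the genes alike in both genotypes, 23 risen and 83 fallen ones are on a list of usual kidney, immune, stress and matrix genes, and 20 risen and 67 fallen ones are on the function lists used here. A further 74 risen and 182 fallen genes are on neither, 28 and 55 of them under provisional LOC names.

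Some called genes stood next to one another. Of 219 risen genes with a chromosome position, 37 had a neighbouring tested gene that also rose, and of 487 fallen genes 136 had a neighbour that also fell. Of all genes tested 1.24% rose and 2.71% fell. How many such neighbours random positions would give was not computed, and overlapping genes can be among them. Runs of at least 3 called neighbours numbered 1 among risen genes and 10 among fallen genes. Besides metallothionein, complement, class II and organic ion transporter genes, the fallen runs included GIMAP1, GIMAP6 and GIMAP4, small GTPases of lymphocytes and endothelium, on chromosome 18 from 6372854 to 6452963 in build Sscrofa11.1. Whether counting used strand was not stated in the sources used here, so 51 overlapping pairs of called genes may share reads. Pairs that bear on genes named below are CHRM4 with MDK, PDZD3 with CCDC153, C3H16orf58 with SLC5A2 and GC with LOC110262121. GMPR2, POLH, TP53I3, TKFC, LTA4H, EPHX1, NMRK1, TMPRSS4, WNT5A, B3GNT7, CELF4 and PEBP4 overlap other called genes.

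The function lists covered 40 subjects and 2608 different genes, 2284 of which were tested. Of these, 37 rose (1.62%) and 93 fell (4.07%), beside 1.24% and 2.71% of all genes tested. Lists and members were chosen with earlier results of these data known. A share above that of all genes, here and below, can therefore come in part from the choice. In 14 lists some members fell and none rose, in 6 some rose and none fell, in 13 both happened and in 7 lists, with 416 tested members, neither did. The bar plot of the lists puts mucins, S100 proteins and keratins at the risen end. Retinoid, folate and peptidase genes are at the fallen end.

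**Figure D2:**
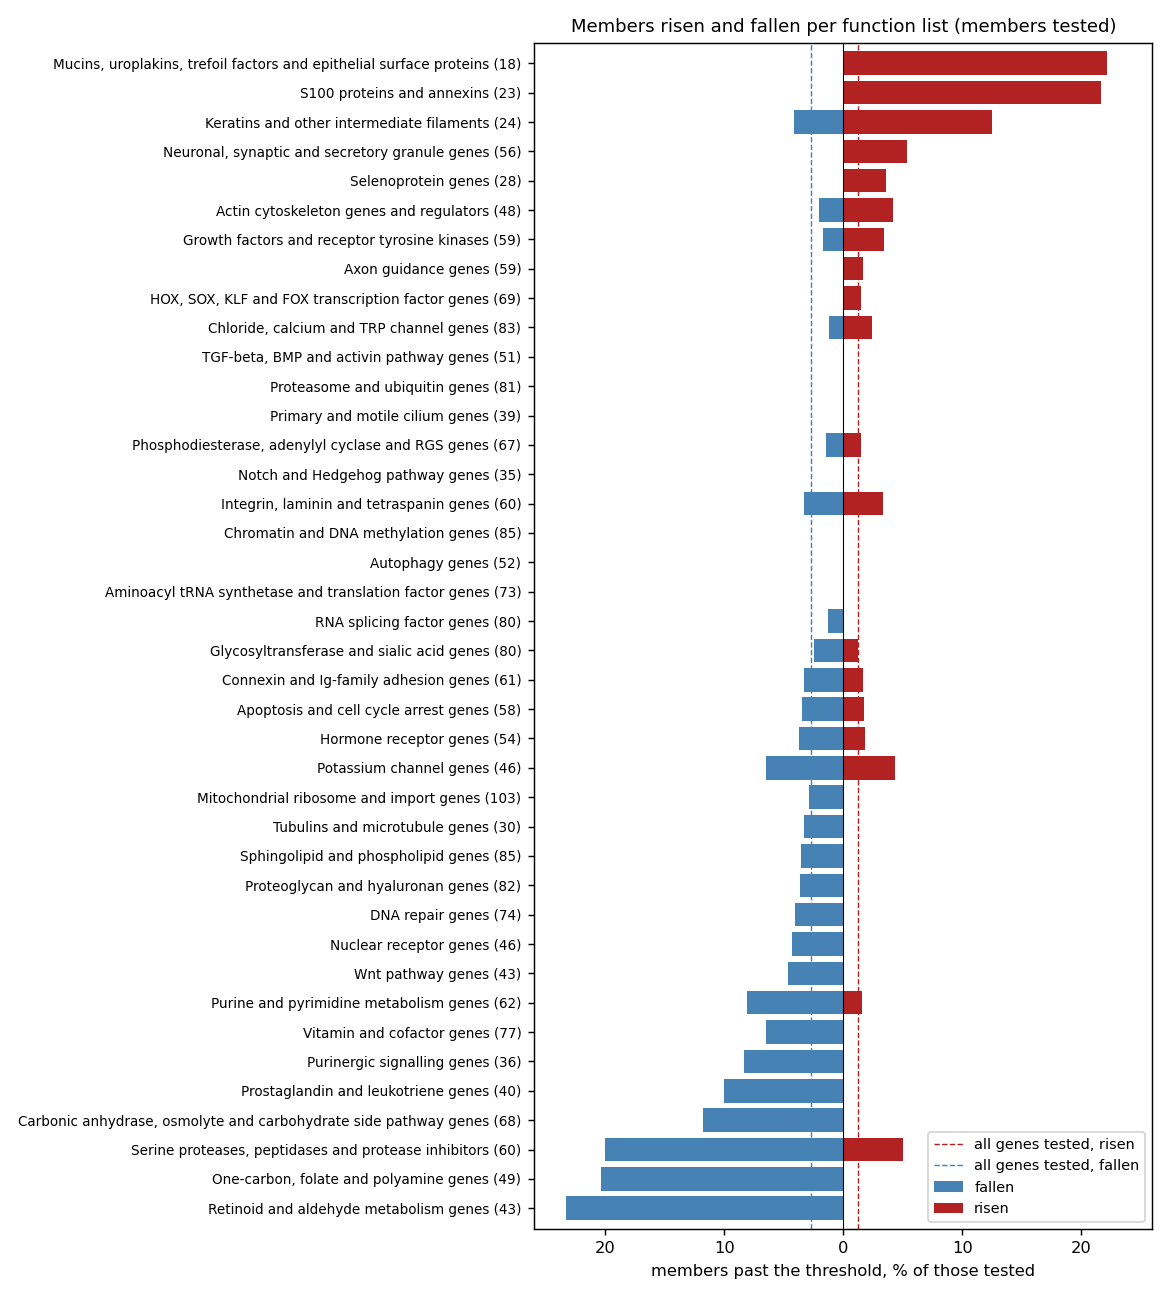
Bars give the share of each list's tested members that rose (right, red) or fell (left, blue), in percent, with the number tested in brackets and dashed lines at the shares over all genes. The shares run from 22.2% risen for mucins and related proteins to 23.3% fallen for retinoid and aldehyde genes.

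Epithelial surface, calcium-binding and filament genes were the groups with the largest risen shares. Among 23 S100 proteins and annexins, 5 rose and none fell, and the median log2 ratio was 0.48 in the 4-week pair and 0.72 in the 6-week pair, beside 0.02 and 0.01 over all genes. S100A2, a calcium-binding protein of squamous and basal epithelia encoded on chromosome 4 from 96073496 to 96076825, stood at 0.801 and 0.711 CPM in the untransplanted CD39/CD55 and CD39/CD46/CD55/TBM kidneys and at 29.9 and 76.3 CPM in the grafts of the same genotypes. Both grafts were far above both untransplanted kidneys, the 6-week graft most, and the log2 fold change was 6.11 ± 0.62 (SE, adjusted p = 0.00098). Leaving out the 6-week graft gave a log2 fold change of 5.29 for S100A2.

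S100A6, a calcium-binding protein of dividing and epithelial cells, was at 49.2 and 76.1 CPM without transplantation and 558 and 1708 CPM in the grafts. Its log2 fold change was 4.18 ± 0.65 (adjusted p = 0.00506), alike in both genotypes. ANXA1, a membrane-binding mediator of anti-inflammatory signalling, rose alike by a log2 fold change of 2.38 ± 0.48. S100A4 and ANXA8 also rose, at 3.65 and 3.84, and S100A4 had log2 ratios of 2.19 in the 4-week pair and 4.24 in the 6-week pair. With the 6-week graft left out, the log2 fold changes were 3.16 for S100A6, 1.79 for ANXA1 and 2.05 for S100A4, and without the 4-week graft values were 4.78 for S100A6 and 4.41 for S100A4. A fit without the CD39/CD55 untransplanted library gave a log2 fold change of 4.54 for ANXA8.

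Of 18 mucins, uroplakins, trefoil factors and epithelial surface proteins, 4 rose, all of them alike, and none fell. MUC5AC and MUC2 encode gel-forming mucins of stomach, airway and gut and lie near each other on chromosome 2, MUC2 from 689363 to 719542 and MUC5AC from 757897 to 790321. MUC2 had 0 counts in both untransplanted libraries, 22 in the 4-week graft and 29 in the 6-week graft. MUC5AC had 0, 32 and 22 counts in the same order. Against a floor of 3 counts per library, MUC2 was at least 8.14-fold higher in the 4-week pair and at least 11.8-fold higher in the 6-week pair, and MUC5AC at least 11.8-fold and 8.97-fold. Few reads carry these calls. MUC2 is also 1 of the 10 intestine and stomach markers, of which VIL1 fell and CDX2, TFF1 and TFF2 had no read in any library.

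WFDC2, a small secreted protease inhibitor-like protein of ducts, went from 338 and 207 CPM to 1899.5 and 1663 CPM, a log2 fold change of 2.71 ± 0.53 (adjusted p = 0.0159). Each graft was above each untransplanted kidney. MUC1, MUC4 and MUC20, which are bound to the membrane, did not pass, with log2 fold changes of 0.50, 1.07 and 0.83. With the 2 mucins without untransplanted reads set at their bounds, the list's median log2 ratios were 0.64 and 1.47 and did not move.

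Among 24 keratins and other intermediate filaments, 3 rose and 1 fell. KRT7, a keratin of simple duct epithelium, had 18.4 and 6.96 CPM without transplantation and 42.7 and 83.1 CPM in the grafts. The change was larger in the 6-week pair (log2 ratio 3.57) than in the 4-week pair (1.21). RefSeq classes this KRT7 locus as a long non-coding RNA, and it is counted as such above. PRPH, a filament of peripheral neurons, and KRT80 also rose, from at most 6 counts in an untransplanted library to between 14 and 66 in a graft. The partner keratins KRT8 and KRT18 did not pass, at log2 fold changes of 1.11 (adjusted p = 0.242) and 1.79 (adjusted p = 0.0588). NES, a filament of podocytes and endothelium, fell alike from 36.5 and 54.1 CPM to 11.8 and 9.76 CPM. The fit that left out the 6-week graft gave a log2 fold change of 2.07 for KRT80 (3.25 with all 4 libraries), and without the 4-week graft the value was 3.91. After removal of the CD39/CD55 untransplanted library, the log2 fold change was 3.17 for KRT7 (2.31 with all 4 libraries).

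Of 48 genes of the actin cytoskeleton and its regulators, RND3, a small GTPase, and CDC42EP5, an effector of CDC42, rose alike by log2 fold changes of 1.86 and 1.89. VIL1, the villin of brush border microvilli, fell alike by 1.86 on the log2 scale. Of 30 tubulin and microtubule genes only TUBB6 passed, with a log2 fold change of -2.09. Among these surface and filament genes, ANXA8, KRT7, KRT80, NES, WFDC2, CDC42EP5 and VIL1 did not pass without the CD39/CD46/CD55/TBM untransplanted library, and PRPH, KRT80, RND3 and TUBB6 did not pass without the CD39/CD55 untransplanted library, nor without the 6-week graft. Adjusted p in those fits ran from 0.055 to 0.417. PRPH and KRT80 did not pass with limma voom (0.131 and 0.135), nor did CDC42EP5 (0.0522) when 10 counts were asked of at least 2 libraries. Removing the CD39/CD55 untransplanted library gave a log2 fold change of 2.54 for CDC42EP5.

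Signalling genes were called in both directions. In the lists of the next paragraphs, from growth factors to prostaglandin genes, the risen share ran from 0% to 5.36%. The fallen share ran from 0% to 10%, beside 1.24% risen and 2.71% fallen of all genes tested. Of 59 growth factors and receptor tyrosine kinases 2 rose and 1 fell. EGF, which the distal tubule releases into urine, was at 197 and 160 CPM in the untransplanted kidneys and 34.4 and 33.6 CPM in the grafts. Its log2 ratios were -2.52 and -2.25 and its fold change -2.39 ± 0.43 (adjusted p = 0.0111), so that the grafts of both genotypes lay close together and below both untransplanted kidneys. HGF, a growth factor for epithelia made by mesenchymal cells, rose from 8.52 and 13.8 CPM to 32.7 and 93.6 CPM, and MDK, a heparin-binding growth factor, rose from 12.1 and 11.7 CPM to 43.3 and 46.4 CPM. FGF1 had a log2 fold change of 1.54 and did not pass (adjusted p = 0.137). When the 6-week graft was left out, the log2 fold change was 1.56 for HGF (2.50 with all 4 libraries).

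Of 43 Wnt pathway genes 2 fell and none rose. WNT5A, a ligand of the branch that does not use beta-catenin, fell alike from 20.5 and 10.2 CPM to 2.67 and 1.16 CPM (log2 fold change -2.99 ± 0.58, adjusted p = 0.0156). FRZB, a secreted binder of Wnt ligands, fell by 2.39 on the log2 scale. The pathway's central members were close to unchanged in value, with CTNNB1 at -0.42, AXIN2 at 0.00 and LGR5 at 0.32, none of which passed. Leaving out the 4-week graft gave log2 fold changes of -3.71 for WNT5A and -3.23 for FRZB, and without the CD39/CD55 untransplanted library the value was -2.40 for WNT5A.

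Among genes best known from neurons, 3 of 56 neuronal, synaptic and secretory granule genes rose (5.36%, beside 1.24% of all genes tested) and none fell. A fold change above 0 was seen for 43 of the 56. Their median log2 fold change was 0.56, beside 0.03 over all genes tested. GRM3, a glutamate receptor that couples to G proteins, on chromosome 9 from 93731210 to 93974718, was at 2.26 and 1.98 CPM without transplantation and 34.1 and 24.3 CPM in the grafts. The 2 grafts were alike and the 2 untransplanted kidneys were alike, with log2 ratios of 3.89 and 3.59 and a fold change of 3.78 ± 0.48 (adjusted p = 0.00195). GRIN2A, a subunit of an ionotropic glutamate receptor, rose to 13.6 and 46.9 CPM from 2.91 and 1.90 CPM. UCHL1, a neuronal deubiquitinase, rose by a log2 fold change of 2.74, while SYT1 and SNAP25 of the synaptic vesicle machinery, at 1.02 and 1.82, did not pass. In axon guidance, 1 of 59 genes rose, the semaphorin receptor PLXNC1, with log2 ratios of 1.34 and 4.37. NTN1, SLIT2 and SEMA3A, at 1.39, 0.41 and 0.20, did not pass. With the 6-week graft left out, the log2 fold changes were 2.49 for GRIN2A (3.64 with all 4 libraries), 1.94 for UCHL1 and 1.35 for PLXNC1 (3.54 with all 4 libraries), and without the 4-week graft values were 4.28 for GRIN2A and 4.38 for PLXNC1. A fit without the CD39/CD55 untransplanted library gave a log2 fold change of 3.67 for UCHL1.

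Of 54 hormone receptors 1 rose and 2 fell. PTH1R, the parathyroid hormone receptor of the tubule, fell alike from 436 and 268 CPM to 73.9 and 34.8 CPM (log2 fold change -2.69 ± 0.53, adjusted p = 0.0155). ADRA2C, an adrenergic receptor, fell from 51 and 47 counts to 2 in the 4-week graft and 0 in the 6-week graft, which is at least 12.8-fold lower in the 6-week pair. HTR2B, a serotonin receptor, rose from 14 and 10 counts to 44 and 123. INSR and GHR, the insulin and growth hormone receptors, did not pass, at -0.24 and -0.58. Among 67 phosphodiesterase, adenylyl cyclase and RGS genes, RGS4 rose and RGS1, which is typical of lymphocytes, fell, both regulators that shorten G protein signals. The fit that left out the 6-week graft gave a log2 fold change of 1.96 for HTR2B (3.07 with all 4 libraries), and without the 4-week graft values were -3.33 for PTH1R and 3.71 for HTR2B.

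Of 36 purinergic genes 3 fell, all alike and all members of the ENPP family of phosphodiesterases. ENPP2, which makes lysophosphatidic acid, was at 78.5 and 82.7 CPM without transplantation and 14.5 and 17.1 CPM in the grafts (-2.35 ± 0.41, adjusted p = 0.00952). ENPP5 fell by 2.08 and ENPP6, a choline phosphodiesterase, by 2.05 on the log2 scale. NT5E and P2RX7, which act on extracellular AMP and ATP, did not pass, at 1.46 and 0.57.

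Of 40 prostaglandin and leukotriene genes 4 fell and none rose. ALOX15, a lipoxygenase, had 98 and 113 counts in the untransplanted libraries and 1 and 4 in the grafts (log2 fold change -5.10 ± 0.75, adjusted p = 0.00409). PTGR2, which inactivates prostaglandins, fell from 176 and 141 CPM to 24.8 and 12 CPM. LTA4H and EPHX1, both epoxide hydrolases, fell by 1.99 and 1.95 on the log2 scale. The prostaglandin synthases PTGS1, PTGS2 and PTGES had log2 fold changes of -0.63, 0.38 and 0.03 and did not pass. Among the signalling genes, FRZB, HGF, PLXNC1, UCHL1, ENPP6, LTA4H, EPHX1 and HTR2B did not pass without the 6-week graft, MDK, LTA4H, EPHX1 and RGS4 without the CD39/CD55 untransplanted library, and MDK, UCHL1 and RGS4 without the other untransplanted library, with adjusted p from 0.0562 to 0.236. PLXNC1, HTR2B, RGS4 and RGS1 did not pass with limma voom, at adjusted p from 0.0641 to 0.108. After removal of the 6-week graft, the log2 fold change was -6.47 for ALOX15, and without the 4-week graft values were -4.33 for ALOX15 and -3.72 for PTGR2 (-3.11 with all 4 libraries).

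Channel genes were called in both directions. Risen and fallen shares were 4.35% and 6.52% for potassium channels and 2.41% and 1.2% for chloride, calcium and TRP channels. Of all genes tested 1.24% rose and 2.71% fell. Of 46 potassium channel genes 2 rose and 3 fell. KCND2, a voltage-gated channel of transient currents, went from 4.88 and 8.54 CPM to 42.5 and 102 CPM (3.42 ± 0.54, adjusted p = 0.00537), and KCNMA1, the large-conductance channel opened by calcium, went from 6.41 and 5.53 CPM to 27.6 and 61.8 CPM. The 3 that fell were inward rectifiers: KCNJ15 fell from 601 and 465 CPM to 125 and 86.0 CPM, KCNJ12 fell by 2.52 and KCNJ2 by 2.32 on the log2 scale. Other inward rectifiers did not pass, with log2 fold changes of 0.15 for KCNJ1, 0.44 for KCNJ10 and -1.24 for KCNJ16. Among 83 chloride, calcium and TRP channel genes, TRPV2 and LRRC8E, a subunit of volume-regulated channels, rose by 1.89 and 2.16, TRPV4, an osmosensitive calcium channel, fell by 2.12, and CFTR did not pass at 2.04 (adjusted p = 0.1). Leaving out the 6-week graft removed the calls of KCNJ2, TRPV4 and LRRC8E, leaving out the CD39/CD55 untransplanted library those of TRPV4 and TRPV2, and leaving out the other untransplanted library those of KCNJ2 and LRRC8E, with adjusted p from 0.0537 to 0.429. TRPV4 and LRRC8E also did not pass with limma voom (0.0719 and 0.0635), nor TRPV4 under the stricter count limit (0.0501). Removing the 6-week graft gave log2 fold changes of 2.67 for KCND2, 2.21 for KCNMA1 (2.90 with all 4 libraries), -3.30 for KCNJ12 and 1.48 for LRRC8E, and without the CD39/CD55 untransplanted library the value was -1.18 for TRPV4.

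Among the function lists, the fallen share was highest for retinoid and aldehyde genes (23.3%), one-carbon, folate and polyamine genes (20.4%) and proteases and peptidases (20%), against 2.71% of all genes tested. The plot of the members shows the fallen genes of the retinoid, folate, peptidase and carbohydrate lists as a tail to the left. The medians of these lists also lay below 0, at -0.79, -0.53, -0.34 and -0.23 in the same order. The median over all genes tested was 0.03. A log2 fold change above 0 was seen for 10 of 43, 15 of 49, 22 of 60 and 29 of 68 members. The summed level of the kidney identity markers, given above, was lower in both grafts as well. Single markers differed: 5 of 13 fell, none rose, and 3 of the 13 had a log2 fold change above 0. The part of the lower markers in the metabolic differences was not tested.

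**Figure D3:**
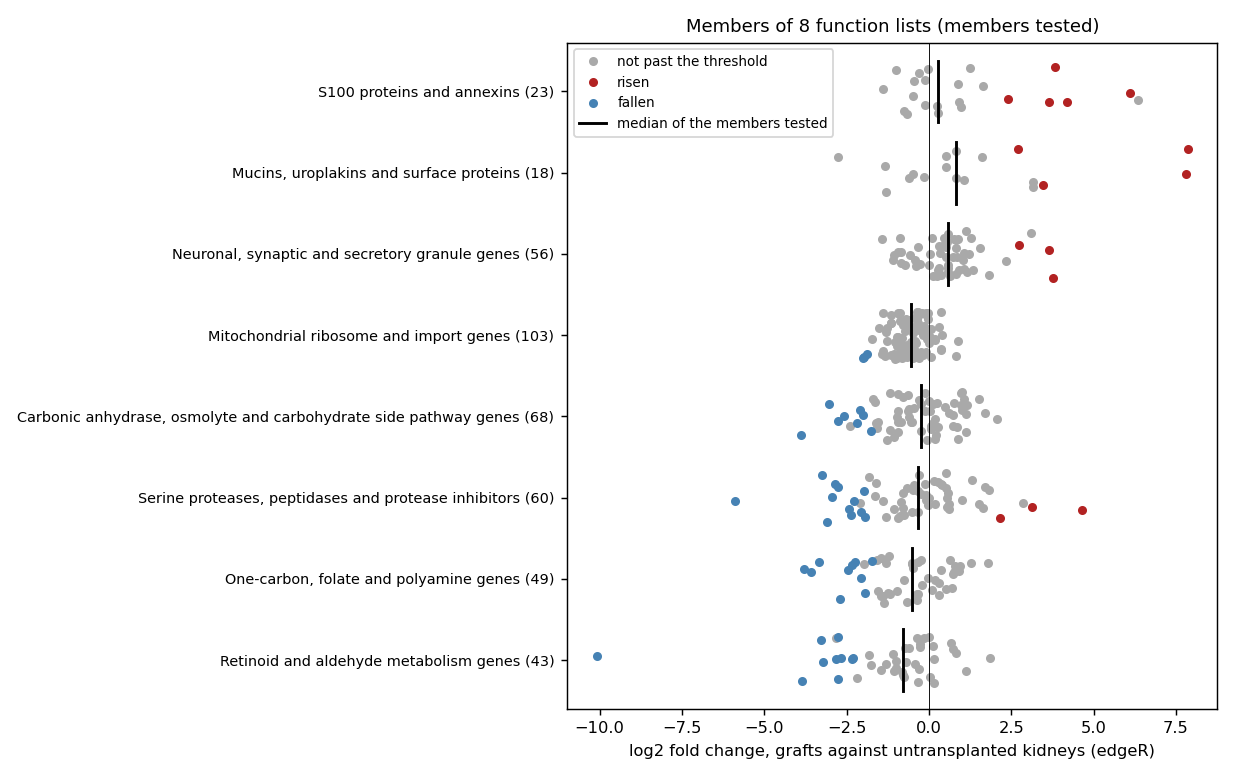
Each point is a tested member of 1 of 8 function lists, placed by its log2 fold change between grafts and untransplanted kidneys, in red where it rose, blue where it fell and grey where it did not pass; the black bar is the list's median. Retinoid and aldehyde genes have the lowest median, -0.79, and mucins and related proteins the highest, 0.83.

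Of 43 retinoid and aldehyde metabolism genes 10 fell, or 23.3%, and none rose. Their median log2 ratios were -0.74 in the 4-week pair and -1.31 in the 6-week pair, and 33 of the 43 had a fold change below 0. TTR, transthyretin, which carries thyroxine and the retinol-binding protein in plasma, is encoded on chromosome 6 from 115496338 to 115503974. It had 72 counts in the CD39/CD55 untransplanted library, 215 in the other untransplanted library and 0 in both grafts, so it was at least 21.6-fold lower in the 4-week pair and at least 58.6-fold lower in the 6-week pair.

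STRA6, the membrane receptor that takes up retinol from its plasma carrier, was at 185 and 104 CPM in the untransplanted kidneys and 15.0 and 16.1 CPM in the grafts. It fell alike, with a log2 fold change of -3.21 ± 0.47 (adjusted p = 0.00389). BCO1, which cleaves beta-carotene to retinal, fell from 57.8 and 69.8 CPM to 6.22 and 2.51 CPM (adjusted p = 0.00257). Another pair fell alike, the short-chain dehydrogenase DHRS7 by 2.76 and RARRES2, the retinoid-responsive chemoattractant chemerin, by 2.82 on the log2 scale. When the 4-week graft was left out, the log2 fold change was -4.65 for BCO1 (-3.86 with all 4 libraries).

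ADHFE1, an alcohol dehydrogenase of hydroxy acids, fell by 2.77. The 3 genes named first on that list did not pass: ALDH1A1, which makes retinoic acid, was at 1121 and 708 CPM without transplantation and 833 and 586 CPM in the grafts, and RDH16 had a log2 fold change of -0.77. RBP4, the retinol carrier itself, went from 25.4 to 10.1 CPM in the 4-week pair and from 7.27 to 26.7 CPM in the 6-week pair, in opposite directions. RETSAT, a retinol saturase off the list that was picked out after its values were seen, fell alike by 2.04 on the log2 scale, and did not pass without the CD39/CD55 untransplanted library (adjusted p = 0.0571). The retinoid genes named here by rule kept their calls in every leave-one-out fit. Leaving out the 4-week graft gave a log2 fold change of -3.44 for ADHFE1.

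Of 49 genes of folate, methyl group and polyamine metabolism 10 fell, 8 of them alike, and none rose. The median log2 ratios were -0.36 and -1.01. AGMAT, an agmatinase of mitochondria, encoded on chromosome 6 from 74773359 to 74784486, was at 194 and 255 CPM without transplantation and 18.0 and 14.3 CPM in the grafts. The log2 ratios were -3.42 and -4.15, and the log2 fold change was -3.79 ± 0.47 (adjusted p = 0.00175).

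The folate receptor FOLR2, also a marker of resident macrophages, went from 461 and 253 CPM to 42.8 and 28.2 CPM. BHMT, which remethylates homocysteine with betaine, went from 361 and 139 CPM to 33.5 and 8.41 CPM. PHGDH, which opens serine synthesis, fell from 106 and 65.7 CPM to 19.3 and 11.9 CPM. All 3 fell alike, by 3.33, 3.57 and 2.46 on the log2 scale. With the 6-week graft left out, the log2 fold change was -2.90 for BHMT, and without the 4-week graft the value was -4.89. A fit without the CD39/CD55 untransplanted library gave a log2 fold change of -2.73 for BHMT.

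MTHFD1, the cytosolic folate enzyme, fell alike by 2.23 and SHMT2, the mitochondrial serine hydroxymethyltransferase, by 2.07 on the log2 scale. The cytosolic counterpart SHMT1 had a log2 fold change of -0.96 (adjusted p = 0.298) and ODC1, which opens polyamine synthesis, of -0.03. Among 77 vitamin and cofactor genes 5 fell and none rose. TCN2, the carrier of vitamin B12 in plasma, fell alike from 183 and 215 CPM to 17.0 and 26.2 CPM. SLC52A3, a riboflavin transporter, fell from 78 and 180 counts to 11 and 3. The fit that left out the 4-week graft gave a log2 fold change of -5.04 for SLC52A3 (-4.02 with all 4 libraries), and without the CD39/CD46/CD55/TBM untransplanted library the value was -3.22.

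PCCB, a biotin-dependent carboxylase subunit, NMRK1, a kinase of the NAD precursor nicotinamide riboside, and PDXP, a phosphatase of vitamin B6, fell by 2.05, 2.58 and 3.01 on the log2 scale. QPRT and NAMPT, which make NAD by other routes, did not pass, at -1.26 and 1.25. SHMT2 and PCCB did not pass without the 6-week graft (adjusted p = 0.0655 and 0.0576). PDXP did not pass without the CD39/CD46/CD55/TBM untransplanted library (adjusted p = 0.0873) or with limma voom (0.0611). After removal of the 4-week graft, the log2 fold change was -3.51 for NMRK1.

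Purine and pyrimidine metabolism had 5 fallen and 1 risen gene among 62. PNP, the purine nucleoside phosphorylase of salvage, on chromosome 7 from 78426838 to 78447029, fell alike from 185 and 159 CPM to 12.9 and 16.5 CPM (-3.55 ± 0.45, adjusted p = 0.00195). UPB1, which ends pyrimidine breakdown, fell from 620 and 421 CPM to 104 and 26.8 CPM. PPAT, the first committed enzyme of purine synthesis, rose alike from 14.5 and 14.1 CPM to 38.5 and 49.0 CPM, a log2 fold change of 1.61. GMPR2, DUT and AK3 fell alike by 1.84, 1.58 and 2.19. XDH and UOX, which make and break down uric acid, had at most 6 counts in a library and were not tested. Removing the 6-week graft gave a log2 fold change of -2.32 for UPB1 (-2.99 with all 4 libraries), and without the 4-week graft values were -4.27 for UPB1 and -3.11 for AK3. When the CD39/CD55 untransplanted library was left out, the log2 fold change was -1.59 for AK3.

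Of 68 genes of carbonic anhydrases, osmolytes and carbohydrate side pathways 8 fell, 7 of them alike, and none rose. MIOX, the kidney enzyme that opens inositol breakdown, on chromosome 5 from 249312 to 251547, was at 608 and 423 CPM in the untransplanted kidneys and 49.9 and 19.5 CPM in the grafts (-3.89 ± 0.58, adjusted p = 0.00438). SLC5A3, which imports inositol, had a log2 fold change of 1.53 and did not pass (adjusted p = 0.0965), and AKR1B1, which makes sorbitol, was at 0.06. The fructose genes KHK, the ketohexokinase, and TKFC, the triokinase, fell by 2.77 and 3.03 on the log2 scale. GALM of galactose metabolism, RENBP of amino sugars and FUK, the fucose kinase, fell alike by 2.58, 2.10 and 2.18. Leaving out the 6-week graft gave a log2 fold change of -2.05 for KHK, and without the 4-week graft values were -4.71 for MIOX and -4.33 for KHK. With the CD39/CD55 untransplanted library left out, the log2 fold changes were -1.93 for KHK and -1.93 for TKFC, and without the CD39/CD46/CD55/TBM untransplanted library the value was -3.65 for TKFC.

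Without the CD39/CD55 untransplanted library PPAT, GMPR2, DUT, AK3, FUK and KHK did not pass, nor did PPAT, GMPR2, DUT, AK3, RENBP and FUK without the 6-week graft. PPAT and DUT also failed without the CD39/CD46/CD55/TBM untransplanted library and DUT without the 4-week graft; adjusted p in these fits was 0.0512 to 0.213. With the stricter count limit DUT, AK3 and KHK did not pass (0.0511 to 0.0567), and with limma voom PPAT did not (0.0517). The calls of PNP, UPB1, MIOX, GALM and TKFC held in every fit.

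Of the lipid genes 0% rose and 3.53% fell, and of the sugar chain genes 1.25% and 2.5%, beside 1.24% and 2.71% of all genes tested. Of 85 sphingolipid and phospholipid genes 3 fell and none rose. ETNPPL, which breaks down phosphoethanolamine, had 146 and 181 counts without transplantation and 3 and 6 in the grafts (log2 fold change -4.92 ± 0.64, adjusted p = 0.00209). ARSA, the lysosomal arylsulfatase, and PLD2 fell by 2.61 and 1.87. Of 80 glycosyltransferase and sialic acid genes B3GNT7, which extends keratan sulfate chains, rose alike from 1.82 and 1.66 CPM to 23.4 and 13 CPM (3.38 ± 0.53, adjusted p = 0.00521), and GALNT11 and B3GNT5 fell by 1.86 and 1.95. CMAH and B4GALNT2, which make sugars that differ between pigs and primates, had at most 9 counts and a log2 fold change of 1.57 (adjusted p = 0.242), respectively. GALNT11, B3GNT5, ARSA and PLD2 did not pass without the 6-week graft, ARSA and PLD2 without the CD39/CD55 untransplanted library, and GALNT11 and B3GNT5 without the other untransplanted library (adjusted p 0.0576 to 0.344). B3GNT5, ARSA and PLD2 did not pass with limma voom (0.0561 to 0.0721), nor B3GNT5 and PLD2 with the stricter count limit (0.056 and 0.0602). A fit without the 6-week graft gave a log2 fold change of -5.63 for ETNPPL, and without the CD39/CD55 untransplanted library the value was -1.96 for ARSA.

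Of 60 serine proteases, peptidases and protease inhibitors 12 fell, or 20%, and 3 rose. KLK1, tissue kallikrein, which the distal tubule secretes and which frees kinins, is encoded on chromosome 6 from 55570632 to 55576398. It was at 185 and 175 CPM in the untransplanted kidneys, 0.727 CPM in the 4-week graft and 5.41 CPM in the 6-week graft. The fold change was -5.89 ± 0.76 (adjusted p = 0.00207), and the log2 ratios, -7.91 and -5.00, differed by more than 1 between the genotypes. The fit that left out the 6-week graft gave a log2 fold change of -7.93 for KLK1, and without the 4-week graft the value was -5.04.

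Peptidases of the brush border were among the fallen members. MME, neprilysin, went from 1231 and 751 CPM to 125 and 105 CPM. ANPEP, aminopeptidase N, went from 298 and 288 CPM to 66.7 and 41.7 CPM. Both fell alike, as did DPEP1, a dipeptidase, by 2.95 and NAALADL1 by 2.28 on the log2 scale.

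CNDP1, a secreted carnosinase, fell from 148 and 89.0 CPM to 10.3 and 14.5 CPM. Risen members were TMPRSS4, a membrane serine protease of epithelial tumours, from 4 and 1 counts to 57 and 54, the serpin SERPINA3-2 from 0.728 and 1.26 CPM to 8.97 and 8.60 CPM, and TRHDE, a peptidase of thyrotropin-releasing hormone, by 2.15 on the log2 scale. MEP1A, a subunit of the meprin metalloprotease, had 9, 9, 6 and 80 counts in the order untransplanted and graft of CD39/CD55, then of CD39/CD46/CD55/TBM, and did not pass (adjusted p = 0.117). Only the call of TRHDE, of the 9 genes passing among those named here, was lost in a leave-one-out fit, without the CD39/CD46/CD55/TBM untransplanted library (adjusted p = 0.0932). After removal of the CD39/CD55 untransplanted library, the log2 fold change was 5.78 for TMPRSS4 (4.63 with all 4 libraries), and without the CD39/CD46/CD55/TBM untransplanted library the value was 4.03.

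Matrix and adhesion genes changed in part. Of 82 proteoglycan and hyaluronan genes 3 fell, all alike, and none rose. SDC1, the syndecan of epithelial surfaces, was at 117 and 74.5 CPM without transplantation and 13.7 and 12.5 CPM in the grafts (-2.87 ± 0.44, adjusted p = 0.00492). PRELP and OGN, small leucine-rich proteins of connective tissue, fell by 2.76 and 1.85, while DCN, of the same family, was at -0.04 and SDC4 at 0.29. Among 60 integrin, laminin and tetraspanin genes, ITGB3 and TSPAN15 rose by 2.95 and 2.08, and TINAG, a basement membrane protein of the tubule, and TSPAN33 fell. TINAG fell alike from 726 and 390 CPM to 69.5 and 50.4 CPM. Removing the 6-week graft gave a log2 fold change of 1.77 for ITGB3, and without the 4-week graft the value was 3.60. When the CD39/CD55 untransplanted library was left out, the log2 fold change was -1.20 for TSPAN33 (-1.97 with all 4 libraries).

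ITGB6 and ITGA3 did not pass, at log2 fold changes of 1.61 and 0.72. Among 61 connexin and immunoglobulin family genes, CNTN6 rose and MXRA8 and GJA5, the connexin of arterial endothelium and renin cells, fell. GJA5 fell alike from 10.1 and 8.14 CPM to 1.54 and 1.26 CPM, and GJA1 did not pass, at 0.24. Without the 6-week graft OGN, ITGB3, TSPAN15, TSPAN33 and CNTN6 did not pass, and without the CD39/CD55 untransplanted library OGN, TSPAN15 and TSPAN33 did not (adjusted p 0.106 to 0.4 over both). ITGB3, TSPAN33 and CNTN6 did not pass with limma voom (0.0559 to 0.111), nor TSPAN33 with the stricter count limit (0.0544). Leaving out the 6-week graft gave a log2 fold change of 1.86 for CNTN6 (3.60 with all 4 libraries), and without the 4-week graft the value was 4.38. With the CD39/CD46/CD55/TBM untransplanted library left out, the log2 fold change was 4.32 for CNTN6.

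The lists of DNA repair, cell death, transcription factor, splicing, selenoprotein and mitochondrial ribosome genes had at most 3 called members each. Over these lists and the nuclear receptors, the risen share ran from 0% to 3.57% and the fallen share from 0% to 4.35%. Of all genes tested 1.24% rose and 2.71% fell. NEIL1, a glycosylase that opens base excision repair, on chromosome 7 from 58261761 to 58269001, fell alike from 45.7 and 43.1 CPM to 3.31 and 2.22 CPM (-3.99 ± 0.47, adjusted p = 0.00124). It was 1 of 3 fallen genes among 74 DNA repair genes. POLH, a translesion polymerase, fell alike from 65.1 and 65.9 CPM to 11.9 and 14.7 CPM, and PARP1 by 1.87 on the log2 scale. OGG1 and XRCC1 did not pass, at -0.92 and -1.01.

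Of 58 apoptosis and cell cycle arrest genes BBC3, the PUMA protein that triggers apoptosis, rose alike from 5.32 and 3.87 CPM to 27.6 and 21.5 CPM (2.41 ± 0.45, adjusted p = 0.0131). RRM2B, a ribonucleotide reductase subunit, and TP53I3, a quinone oxidoreductase, fell alike by 1.96 and 2.72, CDKN1A was at 0.63 without passing, and BAX went from 16 to 3.88 CPM in the 4-week pair but from 3.40 to 8.70 CPM in the 6-week pair. Of 46 nuclear receptors NR4A3, an immediate early orphan receptor, fell alike from 34.6 and 32.7 CPM to 1.70 and 2.90 CPM (-3.87 ± 0.49, adjusted p = 0.00195), and NR1I2, the xenobiotic sensor, fell by 1.85. HNF4A, NR1H4 and PPARA did not pass, at -0.40, -0.42 and 0.64. Of 69 HOX, SOX, KLF and FOX genes SOX9, a factor of tubule repair, rose from 7 and 5 counts to 41 and 101, and SOX4 and KLF4 did not pass, at 1.08 and 1.31. A fit without the 6-week graft gave log2 fold changes of -2.05 for TP53I3 and 2.85 for SOX9 (3.81 with all 4 libraries), and without the 4-week graft values were -4.06 for TP53I3, -2.46 for NR1I2 and 4.41 for SOX9. The fit that left out the CD39/CD55 untransplanted library gave a log2 fold change of -1.90 for TP53I3.

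Of 103 mitochondrial ribosome and import genes 3 fell (MRPS16, HSPE1 and MRPL24, by 1.89, 1.99 and 2.01). A fold change above 0 was seen for 14 of the 103. The median log2 ratios were -0.46 and -0.68, beside 0.02 and 0.01 over all genes. In the splicing list 1 of 80 genes, CELF4, fell, and in the selenoprotein list 1 of 28, the selenoprotein P receptor LRP8, rose from 1.31 and 1.74 CPM to 11.2 and 39.1 CPM. The selenoproteins GPX3, SELENOP and GPX1 did not pass, at -1.06, -1.31 and -0.36. Without the CD39/CD55 untransplanted library NR1I2, RRM2B, TP53I3, PARP1, CELF4, MRPS16, HSPE1 and MRPL24 did not pass, and without the 6-week graft NR1I2, PARP1, CELF4, HSPE1, MRPL24 and SOX9 did not (adjusted p 0.0514 to 0.213 over both). MRPL24 and SOX9 did not pass with limma voom (0.051 and 0.0573), nor NR1I2, CELF4 and MRPL24 with the stricter count limit (0.0538 to 0.0571). After removal of the 6-week graft, the log2 fold change was 2.87 for LRP8 (4.03 with all 4 libraries), and without the 4-week graft values were -2.66 for MRPL24, -2.62 for CELF4 (-1.87 with all 4 libraries) and 4.68 for LRP8.

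In 7 lists no member passed the threshold in edgeR's test. At an unadjusted p under 0.05, the primary and motile cilium list (39 tested) had 3 higher and 1 lower member, the Notch and Hedgehog list (35) 3 and 1, the TGF-beta, BMP and activin list (51) 9 and 4, the chromatin and DNA methylation list (85) 7 and 4, the proteasome and ubiquitin list (81) 6 and 2, the autophagy list (52) 5 and 1, and the list of aminoacyl tRNA synthetases and translation factors (73) 1 and 4. Of all 18168 genes tested, 1633 were higher and 1946 lower at the same unadjusted limit. Limma voom called none of the members of these 7 lists. DESeq2 called 1 cilium, 3 TGF-beta, 2 chromatin, 1 proteasome, 3 autophagy and 1 translation gene, and none of the Notch and Hedgehog list. The members named first on these lists, among them TGFB1 at 0.06, NOTCH1 at -0.32, DNMT1 at -0.69, PSMB5 at 0.18, SQSTM1 at 0.58 and EEF1A1 at -0.29, lay within 1 log2 unit of 0.

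Outside every list, RBM3 had the smallest p among named genes that rose alike. It encodes an RNA-binding protein that cells make in response to mild cold, on chromosome X from 42704019 to 42707587. Its level was 30.6 and 31.7 CPM in the untransplanted kidneys and 311 and 283 CPM in the grafts. The samples of each side nearly coincided, which a choice by the smallest p favours. The log2 fold change was 3.25 ± 0.46 (adjusted p = 0.00314). CIRBP, the related cold-inducible protein, picked out after its values were seen, was at 268 and 187 CPM without transplantation and 580 and 388 CPM in the grafts and did not pass (1.09, adjusted p = 0.225).

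STK33, a kinase known from testis, went from 0.728 and 0.632 CPM to 9.13 and 13.6 CPM, a log2 fold change of 4.04 ± 0.58 (adjusted p = 0.00358). IER5L, of an immediate early gene family, went from 1.68 and 2.29 CPM to 20.04 and 18.2 CPM. CPNE8, a calcium-dependent membrane binder, went from 5.83 and 12 CPM to 41.5 and 90.2 CPM. For all 3 both grafts exceeded both untransplanted kidneys several times over, a separation that the rule for picking them favours. Removing the 6-week graft gave a log2 fold change of 2.22 for CPNE8 (2.88 with all 4 libraries), and without the CD39/CD46/CD55/TBM untransplanted library the value was 3.49.

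Further genes of this set were RASGEF1C (4.49), RPH3A, a vesicle protein (3.01), ABCC9, the sulfonylurea receptor of vascular potassium channels (2.48), LY75, an endocytic receptor of dendritic cells and some epithelia (3.17), SVOPL (3.74), CLDN6, a claudin of early epithelium (4.44), PRTG (2.53) and UPTI (2.72), given with their log2 fold changes. PLCXD3, CDKL3, ADIRF, LRRC43, CAPSL, SLC9B1 and FAM222A rose by log2 fold changes of 2.04 to 2.83. RAD21L1, a cohesin subunit of meiosis, rose from 1 count in each untransplanted library to 36 and 26. Without the CD39/CD55 untransplanted library ADIRF, LRRC43, SLC9B1 and FAM222A did not pass, LRRC43 also failed without the other untransplanted library, and CLDN6 and PRTG failed without the 6-week graft (adjusted p 0.054 to 0.167). RAD21L1 and CLDN6 did not pass with limma voom (0.0556 and 0.103). When the 6-week graft was left out, the log2 fold changes were 2.97 for RASGEF1C, 1.88 for ABCC9, 2.22 for LY75, 2.46 for SVOPL, 2.68 for CLDN6 and 1.84 for PRTG, and without the 4-week graft values were 5.23 for RASGEF1C, 4.42 for SVOPL, 5.22 for CLDN6 and 2.00 for UPTI. Leaving out the CD39/CD55 untransplanted library gave a log2 fold change of 3.73 for CLDN6, and without the CD39/CD46/CD55/TBM untransplanted library values were 5.33 for RASGEF1C, 4.62 for SVOPL, 5.77 for CLDN6 and 3.19 for FAM222A (2.43 with all 4 libraries).

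**Figure D4:**
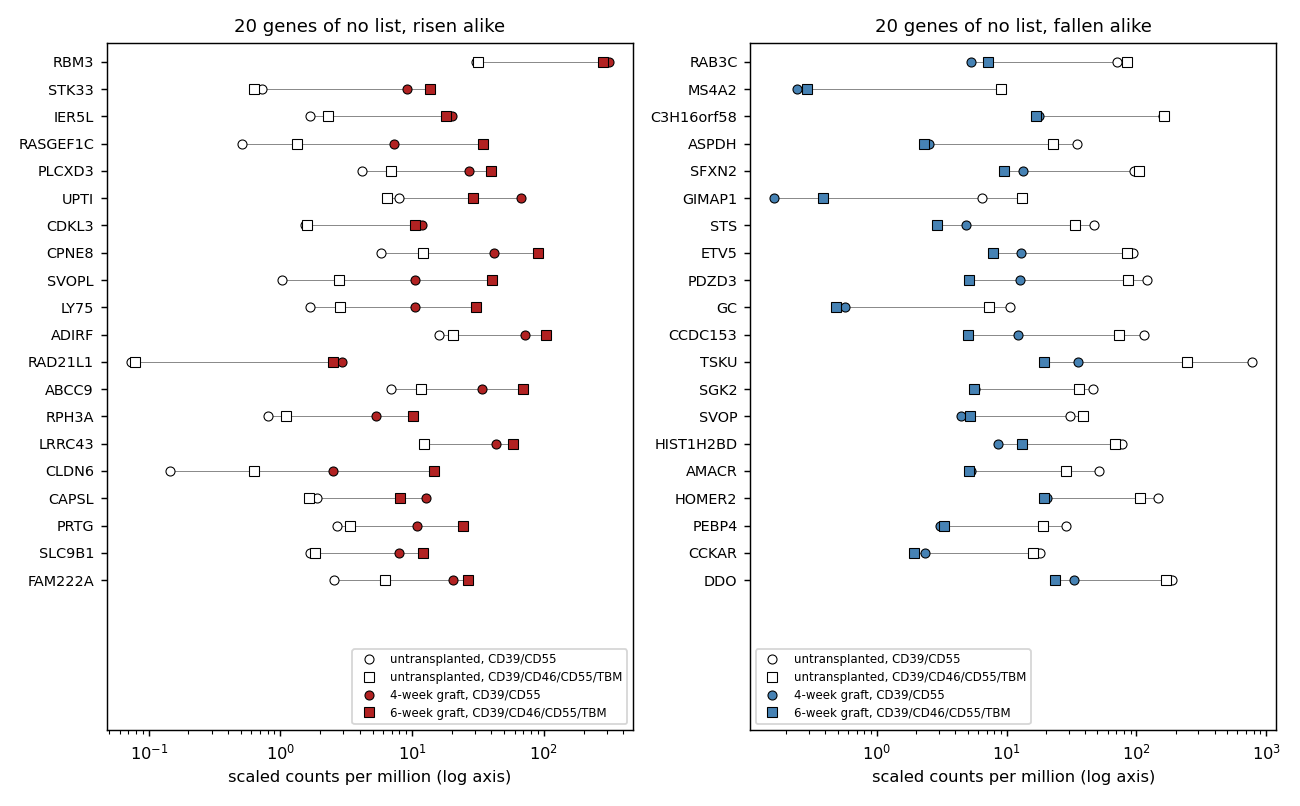
Scaled counts (CPM) on a log axis in each library, for the 20 genes with the smallest p in each direction among named genes on no list and alike in both genotypes; open symbols are untransplanted kidneys, filled symbols grafts, circles CD39/CD55 and squares CD39/CD46/CD55/TBM. In RBM3 the grafts stand at 311 and 283 against 30.6 and 31.7, and in RAB3C at 5.33 and 7.15 against 71.1 and 84.5.

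Among fallen genes on no list, RAB3C, a GTPase of regulated secretion, on chromosome 16 from 37411931 to 37729583, had the smallest p. It stood at 71.1 and 84.5 CPM in the untransplanted kidneys and at 5.33 and 7.15 CPM in the grafts (-3.64 ± 0.45, adjusted p = 0.00158). MS4A2, the beta chain of the IgE receptor of mast cells and basophils, had 124 and 114 counts without transplantation and 3 in each graft. FCER1A, the alpha chain of that receptor, picked out after its values were seen, had 26 counts in each untransplanted library and 0 in each graft, at least 7.81-fold lower in the 4-week pair and 7.09-fold in the 6-week pair. Other mast cell genes were not called. CPA3, with at most 4 counts in a library, was below the count limit and could not show a fall. HDC was lower in both grafts, with 16 and 14 counts without transplantation and 5 and 7 in the grafts, and did not pass. KIT was at 0.29 on the log2 scale and did not pass.

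GIMAP1 fell alike from 88 and 165 counts to 2 and 4. Its neighbours GIMAP4 and GIMAP6, picked out after their values were seen, fell to 0 and 6 and to 5 and 0 counts. The call of GIMAP6 was lost without the 6-week graft, without the CD39/CD46/CD55/TBM untransplanted library and with limma voom (adjusted p of up to 0.0827). GC, the vitamin D-binding protein, fell alike by 4.06 on the log2 scale, and the overlapping LOC110262121 held the same 4 counts, so their reads cannot be told apart. With the 6-week graft left out, the log2 fold change was -5.83 for GIMAP1 (-5.13 with all 4 libraries), and without the CD39/CD46/CD55/TBM untransplanted library the value was -4.53.

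Several fallen genes of no list are enzymes of small molecules. ASPDH, a putative aspartate dehydrogenase, fell by 3.57, STS, the steroid sulfatase, by 3.38, AMACR, a racemase of branched fatty acids, by 2.93 and DDO, the D-aspartate oxidase, by 2.66 on the log2 scale. TSKU, a secreted leucine-rich protein, fell from 780 and 246 CPM to 35.2 and 19.5 CPM. SFXN2, a mitochondrial carrier protein, fell from 96.2 and 105 CPM to 13.3 and 9.47 CPM. A fit without the CD39/CD55 untransplanted library gave a log2 fold change of -3.17 for TSKU (-4.23 with all 4 libraries), and without the CD39/CD46/CD55/TBM untransplanted library the value was -4.83.

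ETV5, a transcription factor downstream of receptor tyrosine kinases, fell from 93.3 and 83.9 CPM to 13 and 7.83 CPM. SGK2, a kinase of ion transport, and PDZD3, a scaffold of brush border transporters, fell by 2.87 and 3.53, CCKAR, a cholecystokinin receptor, by 2.99 and HOMER2, a scaffold, by 2.67 on the log2 scale. SVOP fell by 2.83 while the related SVOPL rose. C3H16orf58, CCDC153, HIST1H2BD and PEBP4 fell by 3.21, 3.45, 2.74 and 2.90. All 20 of these fallen genes kept their call in every alternative fit that gave them a value. The fit that left out the 4-week graft gave log2 fold changes of -4.33 for PDZD3 and -4.21 for CCDC153.

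A few called genes outside the naming rule were picked out after their values were seen. NOX4, the NADPH oxidase of the kidney, went from 383 and 527 CPM to 44.3 and 26.2 CPM, and CYBA, its membrane partner, from 679 and 309 CPM to 41.8 and 54.5 CPM. HAO1, a glycolate oxidase, fell from 136 and 200 CPM to 19.3 and 13.3 CPM. Log2 fold changes were -3.69, -3.36 and -3.36, with ratios that differed by more than 1 between the genotypes in each. After removal of the CD39/CD55 untransplanted library, the log2 fold change was -2.68 for CYBA.

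Of risen genes, AFP, the fetal plasma protein, had 8 and 0 counts without transplantation and 104 and 185 in the grafts, at least 75.4-fold higher in the 6-week pair, while ALB, its adult relative, had at most 5 counts in any library. APOBEC1, an RNA-editing deaminase of intestine, had 0 counts without transplantation and 16 and 73 in the grafts. CP, the copper protein ceruloplasmin, rose alike from 46.8 and 65.4 CPM to 217 and 258 CPM. AFP did not pass with DESeq2 (adjusted p = 0.0592), APOBEC1 did not pass with limma voom or without the 6-week graft (0.0562 to 0.0665), and CP did not pass without either untransplanted library in turn (up to 0.189).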

How the data were processed

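Kidney RNA of 4 pig kidneys was sequenced, 1 library per genotype and state. The deposited files hold raw read counts per gene symbol, as whole numbers not normalized by the authors. Per the labels' protocols, libraries were made from total RNA with a Lexogen Quant-Seq kit, whose catalogue number may belong to another kit, so whether counts are of 3′ ends or whole transcripts is not settled. Per the submitters' processing notes, Bowtie2 and bedtools were used with build Sscrofa11.1; their versions, and how strand, multiply matching reads and recipient reads were handled, are not stated there. The labels mention no molecular identifiers, and the intervals and floors below account for counting error alone.

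Repeated symbols (81) were summed over 26965 lines. Positions are gene spans of the RefSeq table of the same build. Genes with 10 or more counts in at least 1 library were scaled by TMM (factors 0.957 to 1.07) and tested, grafts against untransplanted, with the quasi-likelihood test of edgeR 4.0.16 in R 4.3.3 (2 residual degrees of freedom, Benjamini-Hochberg adjustment over all 18168 genes). Log2 ratios per genotype used a prior count of 0.5 and exact 95% conditional binomial intervals. Alternatives used DESeq2 1.42.0, limma 3.58.1, another scaling, other count limits, a genotype block and leaving out each library.

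Genes are named by a rule: the first 3 of each function list, up to 6 risen and 6 fallen members per list by p, the 20 alike genes per direction on no list, and tissue markers. A few genes that this rule names are not reported here, but they remain in the counts and medians of their lists. Members and lists were chosen with earlier results of these data known. Sequences of promoters and proteins were not used here.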

Additional observations from a re-analysis of the deposited data

Results flagged for a closer look

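Genes reported here that were at least 2-fold higher in 1 genotype and at least 2-fold lower in the other, with counting intervals excluding no change in both, are given with the log2 ratio in CD39/CD46/CD55/TBM minus that in CD39/CD55. With 1 library per genotype and state none of these differences was tested, and genotype, weeks and recipient cannot be told apart. GDF15, a stress-induced cytokine of the TGF-beta family, differed by 4.15, with 23 counts without transplantation and 8 in the 4-week graft of CD39/CD55, against 3 and 20 counts in the other genotype. BAX, a driver of apoptosis, differed by 3.37, and RBP4, the retinol carrier, by 3.20, both lower in the 4-week graft and higher in the 6-week graft. CKB, the brain-type creatine kinase, picked out after its values were seen, differed by 2.53 in the same sense, from 243 to 101 CPM and from 74.5 to 179 CPM. The opposite order was seen for CALB1, the calcium buffer of the distal tubule, which differed by -3.08, and for SLC26A4, the anion exchanger pendrin, also picked out after its values were seen, which differed by -3.97, from 6.27 to 39.6 CPM and from 41.6 to 16.6 CPM.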

How the results depend on the processing

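With 2 libraries a side and 2 residual degrees of freedom, the counts of called genes moved with the fit. Risen and fallen genes numbered 543 and 1035 without a count filter, 431 and 865 with DESeq2, and 1124 and 1681 with genotype as a block; leaving out 1 library gave 186 to 1051 risen and 392 to 1349 fallen genes, the highest of both without the 4-week graft. Genes alike in both genotypes numbered 270 risen and 614 fallen without a filter, 222 and 569 with DESeq2, and 529 and 864 with the block. The other alternatives stayed within 1.5 times of the main counts, but similar totals did not mean the same genes. Limma voom called 154 risen and 446 fallen genes, and 147 and 405 of these were also called in the main fit. The main fit called 225 and 493. Fits without 1 library also called partly different genes. No alternative scaling moved the median log2 fold change by over 0.1, and the risen share of calls was 31.3%, against 40.1% with the block and 43.8% without the 4-week graft. A fit without 1 library leaves 1 side with a single sample, assumed to vary like the other side. The genotype block pairs a graft and an untransplanted kidney of 1 genotype, and the labels give no replicate numbers. Counts of genes alike in both genotypes need all 4 libraries and were not recomputed without one.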
